A study of Mus musculus with 11 samples.

Results

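Nras and Rras2 are the 2 genes of the core Ras GTPase group that carried named probes among the 7114 named genes analysed here. They were taken by symbol from the platform's annotation, counting only probes with a single symbol, which gave 3 probes for Nras and 2 for Rras2. Both were followed across all 11 mouse RNA samples, each hybridised once on a 2-colour array against RNA of a mouse embryo reference. The labels HRAS_MEL and NRAS_MEL carry the name of a RAS isoform, and D6_MEL and Melan A are melanocyte labels without one. The descriptions tie NRAS_MEL to D6_MEL by a shared code with Nras added, while HRAS_MEL has a code of its own. The labels state neither the RAS allele, nor how it was introduced, nor how many clones a line holds. The other samples are labelled 3T3 and VA_MEF, taken as fibroblasts, VA_475, with no cell type given, and Heart, Kidney, Liver and Lung. Nor do they state age, strain or sex of the animals, and each label had 1 array, so no error between replicates exists.

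Ras proteins are small GTPases that switch between a GTP-bound active form and a GDP-bound inactive form. Exchange factors such as Sos1 load them with GTP, and GTPase-activating proteins such as neurofibromin return them to the inactive form. Active Ras binds RAF kinases, phosphatidylinositol 3-kinase and exchange factors for Ral, and thereby drives proliferation and survival. Nras encodes one of the classical Ras proteins and is the isoform most often mutated in human melanoma. Rras2, also known as TC21, encodes a close relative that shares many effectors with the classical proteins and that can transform fibroblasts when it carries an activating mutation. The activity of these switches is set by bound nucleotide and by mutation, neither of which an array measures. A probe for the mouse gene also need not detect an introduced RAS gene.

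Each value is a log2 ratio of the sample's own RNA over the embryo reference, with the median of each array set to 0, so that 1 stands for a 2-fold excess. The deposited table gives no direction. Its signs were turned, which is likely and not settled. Only then do organ markers stand far above the embryo reference, all but Nppb in 1 array each. Titles that put the sample before the reference, read as a ratio, would leave the signs unturned, and every sign below would then be opposite. Markers also went against several labels. The liver markers Alb, Ttr and Apoa1, 3 measured of 15, stood at 1.89 to 3.33 in the array labelled Lung and at -6.95 to -4.44 in the array labelled Liver. The lung surfactant gene Sftpd stood at 5.75 in the array labelled Liver, and the heart genes Nppb and Fabp3 at 4.42 and 3.13 in the array labelled Melan A. Nppb was also at 2.18 in the array labelled VA_MEF, where Fabp3 was at -1.75. The kidney genes Lrp2, at 5.60, and Miox were high under their own label. Of 16 pigment cell markers 6 were measured, and their median was -0.90 in HRAS_MEL, -0.52 in NRAS_MEL and -0.41 in D6_MEL, against -0.82 in 3T3. The highest medians were 0.39 in the array labelled VA_MEF and 0.29 in the array labelled Liver. The list thus did not set the melanocyte labels apart. Its genes went different ways. Mlph, a melanosome transport gene, stood at 2.36 to 3.18 in HRAS_MEL, NRAS_MEL, D6_MEL, the array labelled VA_MEF and the array labelled Heart. In the array labelled Melan A it stood at -0.06. Rab38, also on this list, was highest in the array labelled VA_MEF at 3.40. There the fibroblast markers, 8 measured of 12, had a median of -2.25 against -0.57 in 3T3. In HRAS_MEL Rab38 stood at -0.99, near its -0.93 in 3T3. The receptor genes Kit and Ednrb were low in HRAS_MEL, NRAS_MEL and D6_MEL, Kit at -1.93 to -1.09 and Ednrb at -2.98 to -2.41. Sox10, Mitf and the pigment genes Mlana, Pmel, Tyr, Dct and Tyrp1 had no named probe analysed here. Arrays whose markers crossed their labels (Lung, Liver, Melan A, Heart, VA_MEF) are called by those labels, and none was moved to another class.

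Rras2 was high in a single array, HRAS_MEL, and both of its probes showed this. In HRAS_MEL probe 205503 stood at 1.81 and probe 210806 at 2.14, a mean of 1.97. D6_MEL followed at 0.25 and 0.59, and the array labelled Melan A at 0.28 and 0.34. NRAS_MEL stood lower, at 0.14 and 0.08. The lower probe in HRAS_MEL thus lay above the higher probe in every other array.

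Outside the melanocyte labels, Rras2 fell into a middle and a low range. VA_475 averaged 0.22, the array labelled Liver 0.20, 3T3 0.14 and the array labelled Heart 0.01. From D6_MEL down to the array labelled Heart, the probe ranges of each array and the next overlapped, so no single step in this order is resolved. Over several steps the probe ranges came apart. Both probes in D6_MEL and in the array labelled Melan A lay above both in NRAS_MEL and in the array labelled Heart. With 1 array each, this separates probe values and does not order the samples. The array labelled VA_MEF averaged -0.65, Kidney -0.69 and the array labelled Lung -0.99. These 3 arrays lay below the rest with both probes, and the probe ranges of neighbours among them did not overlap, although VA_MEF and Kidney differed by less than 0.05 on average. Probe ranges cover error within an array only, and with RNA of whole tissue, fewer cells that express Rras2 and less Rras2 RNA per cell cannot be told apart.

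**Figure D1:**
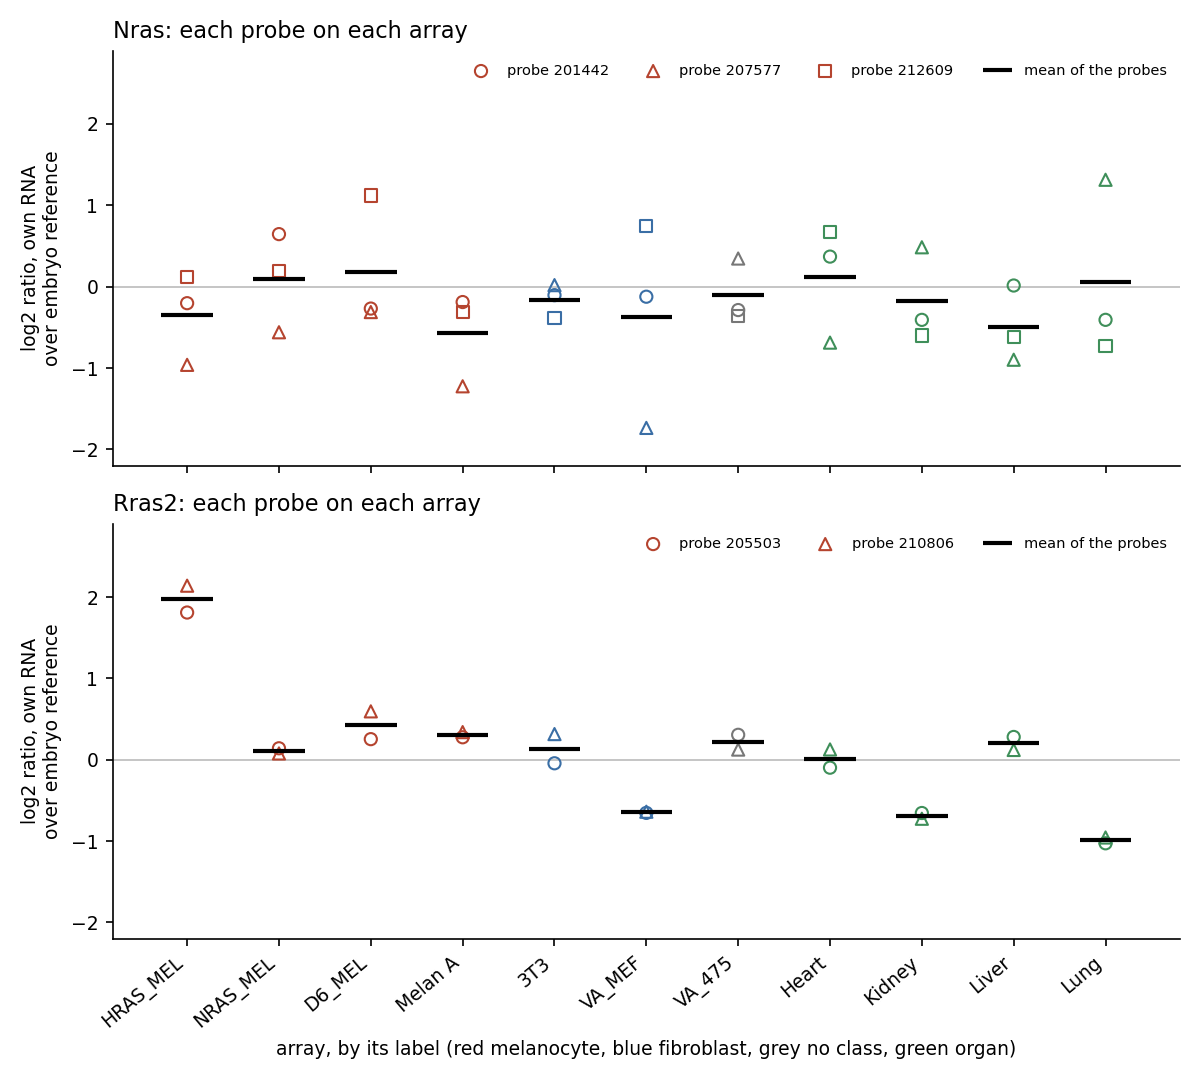
Log2 ratio of own RNA over embryo reference (vertical axes) for each probe of Nras (upper panel) and Rras2 (lower panel) on each of the 11 arrays. Symbols are probes, coloured by the class of the label, and black bars are their means. Both Rras2 probes peak in HRAS_MEL, at 1.81 and 2.14, while the Nras probes spread widely within single arrays and peak in different ones.

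The 2 Rras2 probes followed each other closely, with a Pearson r of 0.97 across the 11 arrays and 0.93 over the 10 arrays without HRAS_MEL. Spearman's rho was 0.71 and 0.61, because the middle arrays changed places. Among 1320 genes with 2 probes measured on every array, the median r was 0.63, and 95.0% had a lower r than Rras2. The spread between its probes within an array, as a root mean square SD, was 0.15, against a median of 0.36 for those genes. The 2 probes share arrays and labelling, so these values describe the probes and are no replicate error.

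HRAS_MEL was set against D6_MEL for Rras2, at 1.97 against 0.42. The log2 difference was 1.55, a 2.93-fold excess, with 1.56 by one probe and 1.54 by the other. In this comparison 5.18% of 7053 genes were at least 2-fold higher and 5.86% at least 2-fold lower. In all, 4.25% of genes differed at least as far as Rras2 in either direction. The descriptions give HRAS_MEL and D6_MEL different codes, so the RAS name and the line cannot be told apart here.

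NRAS_MEL was 0.31 lower than D6_MEL for Rras2, at 0.11 against 0.42, with both probes lower, by -0.11 and -0.52. The majority of genes, 51.9%, differed by at least as much between these arrays. NRAS_MEL stood 1.87 below HRAS_MEL on the log2 scale, with probe differences of -1.67 and -2.06. There 4.23% of genes were at least 2-fold higher and 5.03% at least 2-fold lower in NRAS_MEL, and 1.73% were at least as far apart as Rras2. Rras2 was therefore 2-fold apart in both comparisons that contain HRAS_MEL and not between NRAS_MEL and D6_MEL.

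The distance of HRAS_MEL from the remaining arrays was also described without choosing a single array to set it against. The gap for Rras2 between HRAS_MEL and D6_MEL, the next array, was 1.55. Of 7035 genes with a value on every array, 20 had HRAS_MEL at least 2-fold above each of the other 10 arrays, or 0.284%, and Rras2 ranked 11 by the size of this gap. The rank was looked up because Rras2 was already known to be high in HRAS_MEL, so it describes the array and is no test.

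Groups of arrays were then compared with limma across all genes, with lines and organs standing in for replicates. The RAS-named pair averaged 1.04 for Rras2 and the pair of D6_MEL and the array labelled Melan A averaged 0.37. That difference of 0.68 ± 0.68 (SE) had an adjusted p of 0.882. Limma called 0 of 7053 genes in this comparison (0%), with 218 at an unadjusted p under 0.05. That 0 rested on D6_MEL, without which genes were called, neither Nras nor Rras2 among them. The fit without D6_MEL left the array labelled Melan A, with its heart markers, alone against the RAS-named pair. Its calls thus cannot tell the RAS names from that array, and its Rras2 difference was 0.73. Without HRAS_MEL, which leaves NRAS_MEL alone on its side, the Rras2 difference was -0.26, and without NRAS_MEL it was 1.61.

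Over the classes of the labels, Rras2 averaged 0.70 ± 0.86 in the 4 melanocyte-labelled arrays, -0.37 ± 0.57 in the 4 organ-labelled arrays and -0.26 ± 0.55 in the 2 fibroblast-labelled arrays (SD over arrays). The melanocyte-labelled arrays were higher by 1.07 ± 0.45 (SE) than the organ-labelled ones, with an unadjusted p of 0.0401 and an adjusted p of 0.930 in limma. They were higher by 0.96 ± 0.55 than the fibroblast-labelled ones, with an adjusted p of 0.961. Limma called 0 of 7064 genes in either comparison (0%), and 291 and 344 genes had an unadjusted p under 0.05. Leaving out single arrays gave 7 calls without the array labelled Heart in the organ comparison. In the fibroblast comparison, leaving out 3T3 or the array labelled VA_MEF also gave calls, each time with 1 fibroblast-labelled array left. Without HRAS_MEL these differences were 0.65 and 0.54, so the values rested in good part on that array. Without the array labelled VA_MEF the second was 0.57. Leaving out the arrays labelled Heart and Melan A, whose markers crossed these classes, gave 1.33 against the organ labels, with an adjusted p of 0.212. In that fit 150 genes passed, Rras2 not among them, and 1504 of 7064 had an unadjusted p under 0.05.

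Nras, in contrast, gave no single pattern, since its 3 probes disagreed. Probe 201442 was highest in NRAS_MEL, at 0.65, followed by the array labelled Heart at 0.37, and lay between -0.41 and 0.01 in the other 9 arrays. Probe 207577 was highest in the array labelled Lung, at 1.31, and lowest in the array labelled VA_MEF, at -1.74, with NRAS_MEL at -0.56. Probe 212609 was highest in D6_MEL, at 1.12, then in the array labelled VA_MEF at 0.74 and the array labelled Heart at 0.67, with NRAS_MEL at 0.20.

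The pairwise correlations of the Nras probes over the 11 arrays were -0.39, 0.33 and -0.52, a mean of -0.19. Among 342 genes with 3 probes measured on every array the median of this mean was 0.50, and 2.92% had a lower value than Nras. Within an array the Nras probes differed with a root mean square SD of 0.72, against a median of 0.42 for those genes. Their mean varied little between arrays, with an SD of 0.26 against a median of 0.40. Each probe singly varied more, with an SD of 0.33, 0.87 and 0.63 in the order 201442, 207577 and 212609. The low SD of a mean over probes that disagree therefore does not show steady Nras RNA. Which part of the Nras transcript each probe covers, and whether one of them reads another transcript, was not tested, since probe sequences were not used here.

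As a mean of 3 probes, Nras stood at 0.18 in D6_MEL, 0.12 in the array labelled Heart, 0.09 in NRAS_MEL and 0.06 in the array labelled Lung. VA_475 at -0.10, 3T3 at -0.16, Kidney at -0.17 and HRAS_MEL at -0.35 followed. The array labelled VA_MEF stood at -0.37, the array labelled Liver at -0.50 and the array labelled Melan A at -0.57. The probe ranges of every array and the next in this order overlapped, so no step in the order exceeded the spread of the probes. The whole range of the means, 0.75 on the log2 scale, was narrower than the span of probe values inside NRAS_MEL, 1.21.

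NRAS_MEL, the array named for this gene, stood close to D6_MEL in mean Nras, at 0.09 against 0.18. The difference was -0.09, with a probe SD of 0.93 over the 3 probes. Probe 201442 was 0.91 higher in NRAS_MEL, and probe 207577 differed by -0.25 and probe 212609 by -0.92, so neither Nras nor any of its probes was 2-fold apart. In this comparison 2.41% of 7053 genes were at least 2-fold higher in NRAS_MEL and 4.38% at least 2-fold lower, and 85.6% were at least as far apart as mean Nras. The array labelled Heart, which correlated best with D6_MEL across genes (r = 0.92), was used as a yardstick chosen after its values were seen. It stood 0.64 above D6_MEL by probe 201442 and 0.45 below it by probe 212609. By probe 201442, NRAS_MEL was 0.28 above the array labelled Heart.

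HRAS_MEL averaged -0.35 for Nras against 0.18 in D6_MEL, a difference of -0.53 with a probe SD of 0.55. Its probes differed by 0.07, -0.65 and -1.005, in the order 201442, 207577 and 212609, and 32.6% of genes were at least as far apart. NRAS_MEL was 0.44 above HRAS_MEL, with a probe SD of 0.39, and here all 3 probes were higher in NRAS_MEL, by 0.85, 0.40 and 0.08. Of all genes, 37.9% were at least as far apart in that comparison.

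**Figure D2:**
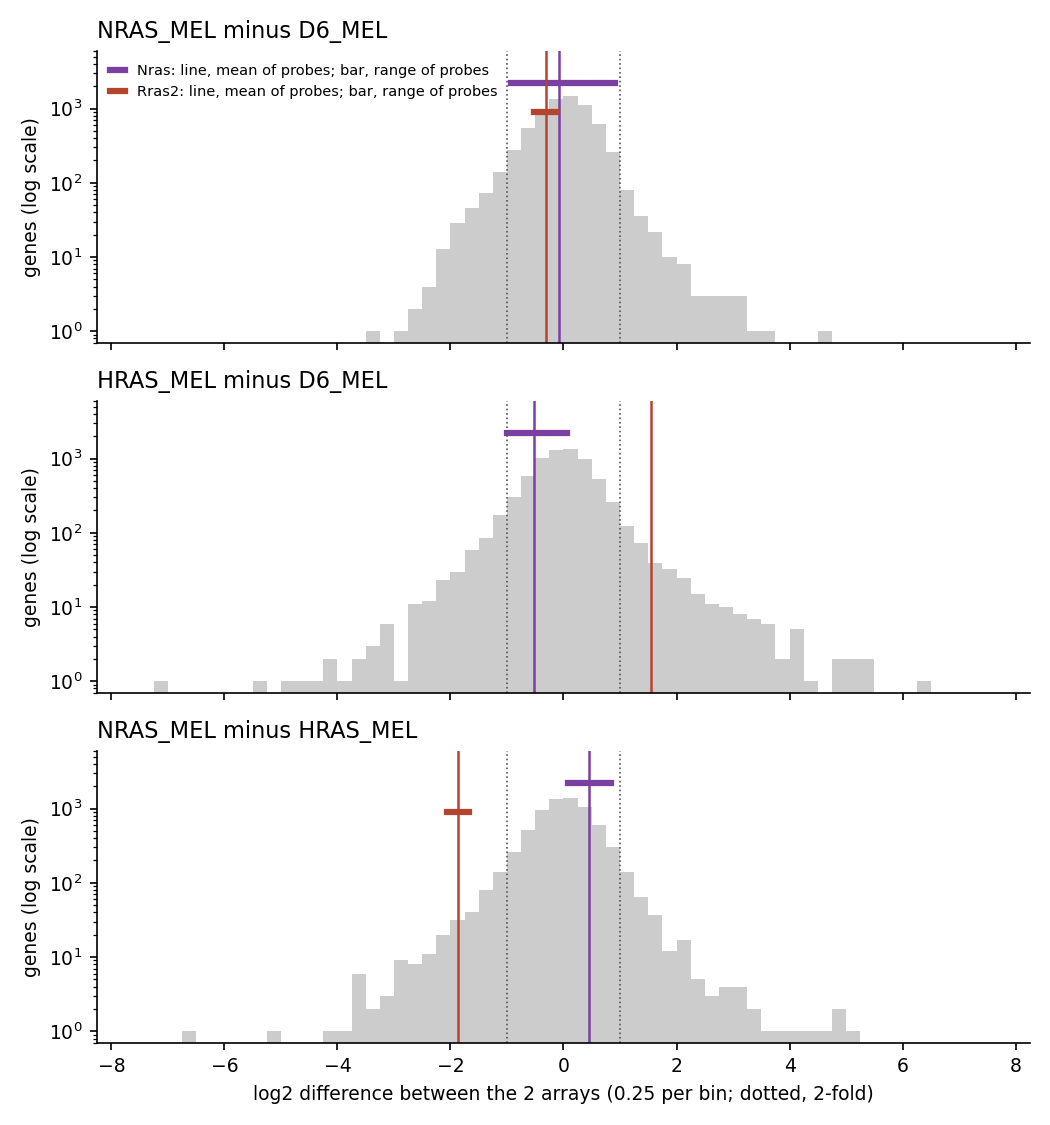
Log2 differences between pairs of arrays for 7053 genes (grey bars, number of genes per bin on a log axis), with the mean of the probes as a vertical line and the range of the probes as a thick bar for Nras (purple) and Rras2 (red). Rras2 lies past the 2-fold limit in the 2 comparisons that contain HRAS_MEL, and its 2 probes nearly coincide at 1.55 in HRAS_MEL minus D6_MEL. The mean of the Nras probes stays within the limit in all 3, with a wide range of its probes that reaches -1.005 in HRAS_MEL minus D6_MEL.

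In limma, Nras differed by 0.07 ± 0.42 (SE) between the RAS-named pair, at -0.13, and the pair of D6_MEL and the array labelled Melan A, at -0.20 (adjusted p = 0.984). The melanocyte-labelled arrays averaged -0.16 ± 0.36 (SD, 4 arrays), against -0.12 ± 0.28 in the organ-labelled ones and -0.26 ± 0.15 in the 2 fibroblast-labelled ones. The differences were -0.04 ± 0.24 and 0.10 ± 0.29 (SE), with adjusted p of 0.994 and 0.975. Fitted singly over all named probes, the 3 Nras probes differed by 0.10, -0.82 and 0.60 between melanocyte and organ labels, and none passed (adjusted p of 0.921 to 0.980). Nras and Rras2 did not follow each other over the arrays, with an r of -0.22.

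Of 35 Ras family genes written for the comparison, 11 had named probes analysed here. Each of the 9 genes besides Nras and Rras2 had 1 probe, so the spread between probes is unknown for them. Rap2b, a Rap GTPase, differed the most from D6_MEL among the 9. It was at 0.75 in HRAS_MEL and 1.32 in NRAS_MEL, against 2.51 in D6_MEL, a difference of -1.76 in HRAS_MEL and -1.197 in NRAS_MEL. It was also high in the arrays labelled VA_MEF and Heart, at 2.21 and 1.67, and at 0.83 or less in the remaining arrays. Rap2b was the only one of the 9 past the 2-fold limit in either array, and 0 of them were past it between NRAS_MEL and HRAS_MEL. Of all genes, 5.18% were higher and 5.86% lower in HRAS_MEL, and 2.41% and 4.38% in NRAS_MEL. Between NRAS_MEL and HRAS_MEL, 4.23% were higher and 5.03% lower. For so few genes these counts are near the background.

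The other Ras family genes moved less among the melanocyte labels. The Rap1 genes, which act in cell adhesion, were highest in the array labelled Liver, with Rap1a at 0.94 and Rap1b at 1.17. In HRAS_MEL and NRAS_MEL, Rap1a stood at -0.47 and -0.34, against 0.27 in D6_MEL. The Ral genes, whose GTPases act in exocytosis, were higher in NRAS_MEL than in D6_MEL by 0.31 for Rala and 0.70 for Ralb. Rala was lowest in the array labelled VA_MEF, at -1.74, and in VA_475, at -1.33. Nkiras1 and Nkiras2, which encode inhibitors of NF-kappaB signalling, were highest in the array labelled Melan A, at 1.10 and 0.75. Rasd1 lay between -0.89 and 0.44, and Rasd2 between -0.84 and 0.35, over all 11 arrays.

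**Figure D3:**
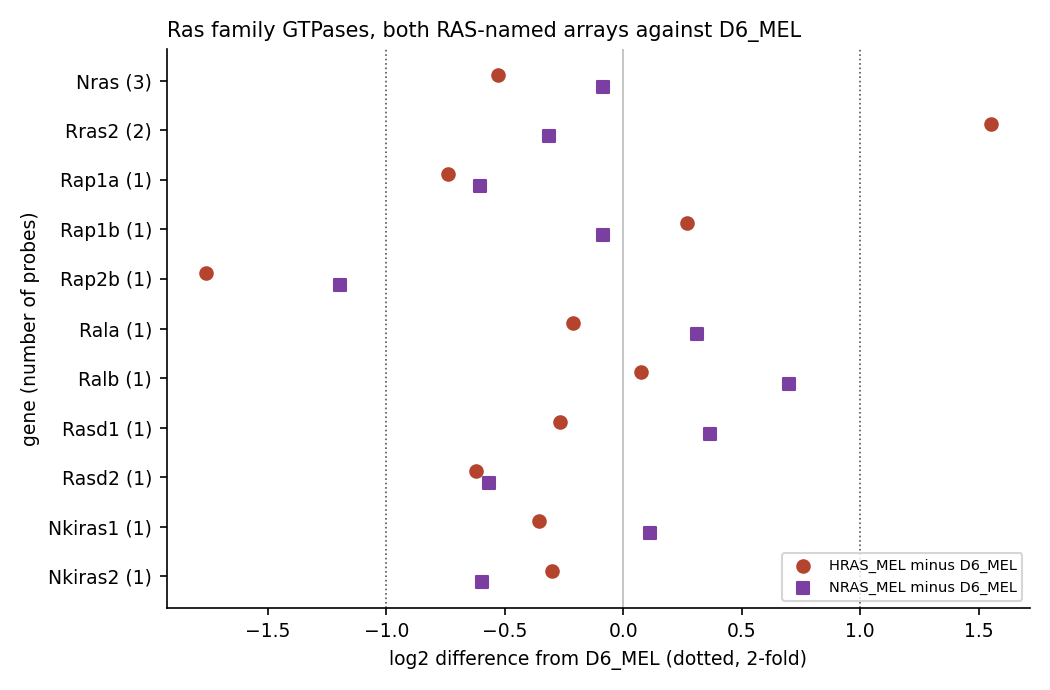
Log2 difference from D6_MEL (horizontal axis) of the 11 Ras family genes with named probes, for HRAS_MEL (red circles) and NRAS_MEL (purple squares), with the number of probes in brackets. Rras2 lies at 1.55 in HRAS_MEL and Rap2b at -1.76 and -1.197, and the other points lie within the dotted 2-fold limits.

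Each RAS-named array was set against the same D6_MEL array, so the next comparisons share it. The wider pathway was covered by 151 further genes in 6 role lists, chosen with earlier results of these data known, of which 61 were measured. Between HRAS_MEL and D6_MEL, 2 of the 61 were at least 2-fold higher and 6 lower, with a median difference of -0.20 against -0.01 for all genes. Between NRAS_MEL and D6_MEL, 3 were higher and 3 lower, with a median of 0.11 against 0.02. NRAS_MEL minus HRAS_MEL gave 5 higher and 2 lower, with a median of 0.07 against 0.02. The shares of all genes past 2-fold were 5.18% higher and 5.86% lower in the first comparison, 2.41% and 4.38% in the second and 4.23% and 5.03% in the third, and the counts are given beside them as a description of the lists. In limma 0 of the 61 passed in each of the 3 group comparisons, with 1, 2 and 5 at an unadjusted p under 0.05, beside 218 of 7053, 291 of 7064 and 344 of 7064 genes in all.

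Adaptors and exchange factors, which load Ras with GTP, had 7 measured members, of which 0 were 2-fold apart in any of the 3 comparisons. At the shares of all genes given above, 0 of so few is near the background. Sos1, the exchange factor recruited by growth factor receptors, stood at -0.21 in HRAS_MEL and -0.60 in NRAS_MEL, against 0.18 in D6_MEL. The adaptor Shc1 was at 0.75 and 0.50 in these arrays, against 0.42 in D6_MEL. The phosphatase Ptpn11 stood at -0.11 in HRAS_MEL against 0.28 in D6_MEL. Rapgef5, an exchange factor for Rap, differed by -0.27 in HRAS_MEL and -0.25 in NRAS_MEL, and Ralgps2, one for Ral, by 0.24 in NRAS_MEL.

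Among 7 GTPase-activating proteins, which switch Ras family proteins off, Dab2ip and Rasa3 were higher in HRAS_MEL. Dab2ip was at 1.64 in HRAS_MEL against -0.05 in D6_MEL, with probe differences of 2.54 and 0.85. Rasa3 was at 1.87 against 0.94, a difference of 0.93 that fell short of the 2-fold limit, with 1.01 and 0.84 by its probes. Sipa1l1, which acts on Rap, differed from D6_MEL by -0.99 in HRAS_MEL and by -1.004 in NRAS_MEL. Its probes disagreed in NRAS_MEL, with differences of -2.01 and 0.01. Rasa2 differed by -0.69 in HRAS_MEL and -0.64 in NRAS_MEL, and in NRAS_MEL Ralgapa1 differed by -0.27 and Dab2ip by -0.39.

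Of 10 enzymes and carriers of the Ras lipid anchor, Icmt, the methyltransferase that completes the modified carboxyl end, was the one past 2-fold. It stood at 0.43 in HRAS_MEL and 0.26 in NRAS_MEL, against 1.43 in D6_MEL, with both probes lower in both arrays. In HRAS_MEL its probes differed by -1.25 and -0.76, so the latter fell short of 2-fold, and in NRAS_MEL by -1.33 and -1.005. Of all genes, 5.86% were at least 2-fold lower in HRAS_MEL and 4.38% in NRAS_MEL. At so few genes, 1 of 10 is near these shares. Rce1, the protease acting one step earlier, differed by 0.37 in HRAS_MEL and 0.59 in NRAS_MEL. Of the farnesyltransferase subunits, Fnta differed by 0.33 in HRAS_MEL and Fntb by 0.48 in NRAS_MEL. Pggt1b, a subunit of a related prenyltransferase, differed by -0.30 in HRAS_MEL, and the thioesterase Lypla1 by -0.39 in NRAS_MEL.

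Of 15 effectors and kinases, 0 were 2-fold apart from D6_MEL in either array, which is also close to the shares of all genes. Map2k1, the kinase MEK1, differed by -0.87 in HRAS_MEL and Map2k2, MEK2, by -0.53. The regulatory subunit Pik3r1 was 0.73 higher and the Ral exchange factor Ralgds 0.54 higher there. In NRAS_MEL the kinase Rps6ka3 differed from D6_MEL by -0.996, just short of the limit, while Rgl2, Pik3ca and Pik3cd were higher by 0.73, 0.60 and 0.56. Pik3cd was the one effector past 2-fold between NRAS_MEL and HRAS_MEL, at 0.14 against -0.92.

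Transcripts and feedback inhibitors of MAP kinase output held 5 of the 8 pathway genes past 2-fold in HRAS_MEL and 3 of the 6 in NRAS_MEL. Of 13 measured, 1 was at least 2-fold higher and 4 lower in HRAS_MEL than in D6_MEL, and 3 higher and 0 lower in NRAS_MEL than in D6_MEL. Of all genes 5.18% were higher and 5.86% lower in HRAS_MEL, and 2.41% and 4.38% in NRAS_MEL, and the difference between the arrays in these counts was not tested. Egr1, an immediate early transcription factor, stood at 1.12 in HRAS_MEL and -0.50 in NRAS_MEL, against -1.51 in D6_MEL. Plaur, the urokinase receptor, stood at -0.44 in HRAS_MEL and 2.30 in NRAS_MEL, against 0.78 in D6_MEL, so it lay on opposite sides of D6_MEL. The cyclin Ccnd1 differed by -1.55 in HRAS_MEL, Etv5 by -1.05 and Ier3 by -1.04. Egr1, Plaur, Ccnd1 and Etv5 have 1 probe each, so the spread between probes is unknown for them. In NRAS_MEL Myc was 1.15 higher, by 1.002 and 1.29 with its probes, and Etv5 differed by -0.95. Between NRAS_MEL and HRAS_MEL, Ccnd1 stood at 4.45 against 2.30 and the chromatin gene Hmga2 at 3.92 against 2.17.

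Among 7034 other genes with values on all 11 arrays, the pattern most like that of Rras2 belonged to Trim47, which encodes a ubiquitin ligase of the TRIM family, with r = 0.92. Pwwp3b at 0.90, Poglut3 at 0.89, Slf2 at 0.88 and Serpinb6c, a serpin, at 0.87 followed. Without HRAS_MEL these values were 0.88, 0.71, 0.80, 0.77 and 0.90. Trim47 and Serpinb6c stood at 1.76 and 1.89 in HRAS_MEL, their highest array, against at most 0.69 and 1.26 elsewhere. Pwwp3b stood at 2.35 there against at most -0.34. Slf2 varied only between -0.38 and 0.05, with a Spearman rho of 0.77. By rank the others were less like Rras2, with a rho of 0.65 for Trim47, 0.69 for Pwwp3b, 0.68 for Poglut3 and 0.58 for Serpinb6c. Slf2 has 2 probes and each of these others 1.

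**Figure D4:**
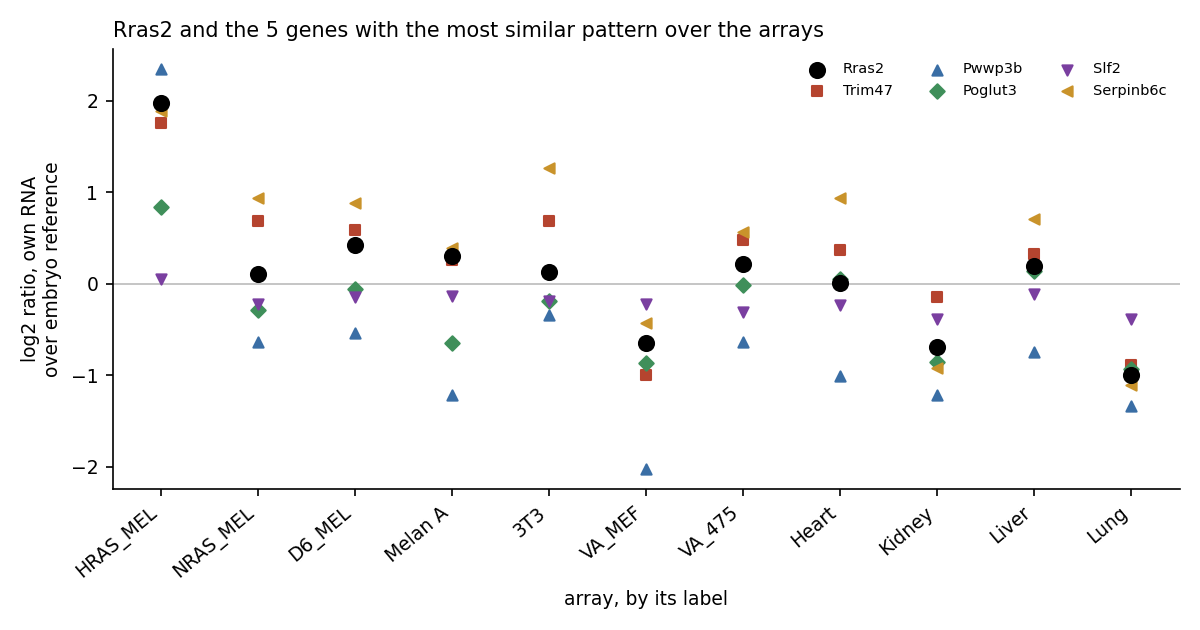
Log2 ratio over embryo reference (vertical axis) of Rras2 (large black circles) and of the 5 genes whose values correlated best with it, on each of the 11 arrays. All 6 genes have their highest value in HRAS_MEL, and for Rras2, Trim47, Poglut3 and Serpinb6c the arrays labelled VA_MEF, Kidney and Lung are the 3 lowest.

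For the mean of the Nras probes the closest genes were Slc37a3, a solute carrier, with r = 0.92, the zinc finger gene Zfp369 at 0.87, 4930473A02Rik and Mettl6 at 0.85 each, and the thioredoxin gene Txn1 at 0.84. Each has 1 probe. As the Nras mean is taken over probes that disagree, these values describe the mean and no probe in particular. With so many genes compared over 11 arrays that share a reference, high correlations arise readily, and neither list is a test.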

How the data were processed

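RNA of 11 samples was extracted with Trizol, labelled with Cy3 and hybridised against Cy5-labelled mouse embryo RNA, 1 array each with no dye swap, per the labels. The deposited log ratios were read as log2; for their base, background correction, normalization and direction the sources used here give nothing. Natural logarithms are possible, and the 2-fold counts rest on base 2. Deposited medians lay between -0.03 and 0.03. Each array gave 15170 to 15210 of 15247 values; precision is limited by the number of arrays, with signal over background unknown.

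Signs were turned, arrays centred on their median, and probes of a gene averaged. The annotation gave 9600 probes 1 symbol, 214 several and 5433 none; 9492 matched a RefSeq table (GRCm38.p6), which changed 0 symbols. No coordinates or sequences are given, as the array values are tied to no build. Single arrays were compared as log2 differences without a test, over 7053 genes with values on all 4 melanocyte-labelled arrays, at a limit of 2-fold. Group comparisons used R 4.3.3 with limma 3.58.1 (functions lmFit and eBayes, Benjamini-Hochberg over all genes, threshold 0.05), checked on simulated data. The RAS comparison used 4 arrays, and the classes 10 arrays in 1 fit. Genes needed 3 values in each class of 4 and 2 in the fibroblast class.

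The members and lists were chosen with earlier results of these data known. Named genes are the members, every measured Ras family gene, 4 genes of each other role list with the largest difference from D6_MEL in each RAS-named array, and the 5 most correlated with each member; Ier3 and Hmga2 are also named as past 2-fold, chosen after their values were seen. Alternatives were no centring, quantile normalization, 1 probe per gene, a trended prior, a 3-fold limit, arrays left out, and, chosen after seeing the data, D6_MEL replaced by the array labelled Heart.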

Additional observations from a re-analysis of the deposited data

Results flagged for a closer look

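In groups of 4 arrays, an array was singled out where its gap to the nearest of the others, divided by the range, exceeded Dixon's 95% critical value for 4 samples. Chance alone would single out about 1 in 20 independent groups of replicates. Here 32 groups were looked at and 5 met the limit. The groups overlap, since gene means and their own probes were both looked at, and different lines and organs stand in for replicates. The members were chosen with earlier results known, so this count is no test. Rras2 at 1.97 in HRAS_MEL lay apart from the other melanocyte-labelled arrays, at 0.11 to 0.42, with a ratio of 0.831. By probe 205503 alone, HRAS_MEL stood at 1.81 against 0.14 to 0.28. By probe 210806 it stood at 2.14 against 0.08 to 0.59, which did not meet the limit. Nras by probe 201442 stood at 0.65 in NRAS_MEL, against -0.27 to -0.19 in the other melanocyte-labelled arrays; the other Nras probes did not show this. Ralb stood at 0.18 in NRAS_MEL, against -0.52 to -0.45 in the other melanocyte-labelled arrays. Nras by probe 212609 stood at 0.67 in the array labelled Heart, against -0.73 to -0.60 in the other organ-labelled arrays. That array correlated best with D6_MEL across genes (r = 0.92), where the same probe stood at 1.12. The heart genes Nppb and Fabp3 stood at -0.01 and -1.90 in it, so the value cannot be read as one of heart tissue. The causes were not tested.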

How the results depend on the processing

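Each label had 1 array, no intensity was used, and no group comparison passed the limma threshold, for Nras or Rras2, under any alternative run. Nras, melanocyte minus organ labels, was -0.04 as reported, but 0.021 with quantile normalization, 0.10 with 1 probe per gene and 0.18 without the arrays labelled Heart and Melan A; the cause was not tested. With each array left out in turn, this difference ranged from -0.16 to 0.10. The other Nras differences ranged from -0.011 to 0.24 (melanocyte minus fibroblast labels) and from -0.31 to 0.45 (RAS-named pair). The Rras2 differences ranged from 0.65 to 1.27, from 0.54 to 1.35 and from -0.26 to 1.61 in the same order, with adjusted p of 0.426 or more; lone arrays were assumed to vary like the other groups. With 1 probe per gene, which takes probe 201442, Nras in NRAS_MEL minus D6_MEL was 0.91 in place of -0.09. Rras2 in HRAS_MEL minus D6_MEL was 1.53 to 1.76 under the other scalings and with 1 probe per gene, and 1.96 where the array labelled Heart replaced D6_MEL; in NRAS_MEL minus D6_MEL that replacement gave 0.09 in place of -0.31. With a 3-fold limit, pathway genes past it were 0 in NRAS_MEL and 3 in HRAS_MEL against D6_MEL, in place of 6 and 8. At 2-fold these counts were 7 and 10 with no centring, 9 and 12 with quantile normalization, and 7 and 12 with 1 probe per gene. The counts in these settings and at 3-fold are given without the shares of all genes. No change particular to the pathway can thus be read from them.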
